A study of Astatotilapia calliptera with 66 samples.

Results

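The genes that build fatty acids and lengthen them were examined in the livers of wild cichlid fish, *Astatotilapia calliptera*. The set was chosen by symbol: acly, me1, acaca, acacb, fasn, scd and every symbol starting with elovl. It held 8 of the 29676 genes in the expression table: acly, me1, acaca, acacb, fasn, elovl5, elovl6 and elovl7. All 8 passed the filter on low values, and 7 of them averaged at least 1 TPM. No entry carried the symbol scd, and stearoyl-CoA desaturase was therefore not analysed here. Entries with only a LOC identifier, 66.4% of all genes, cannot be matched by symbol, so further copies of these enzymes may be missing from the set. Only 3 elovl symbols were found, against 7 in the RefSeq annotation of the *A. calliptera* genome.

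The study compared an incipient pair of ecomorphs of crater Lake Masoko with fish of the neighbouring river system. Liver RNA of 13 wild-caught adult males was sequenced, from 4 riverine fish, 4 littoral fish of the shallow lake margin and 5 benthic fish of the deeper lake, which feed more on zooplankton. All fish were sampled from the wild without treatment, so genotype, diet and habitat differ together between the populations and cannot be told apart. The study's methods and the sample labels differ on how the RNA was enriched, by poly(A) selection or by depletion of ribosomal RNA. The unit is TPM, the relative abundance of a transcript in its library after scaling for transcript length, so that levels of different genes can be compared within a liver.

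The livers came from 2 sequencing runs. The first run held all 4 riverine livers and littoral fish 1, and the second run held littoral fish 2 to 4 and all 5 benthic livers. Riverine and benthic livers thus shared no run, and population and run cannot be told apart between them. Riverine and littoral livers shared a run only through littoral fish 1, and in fits without it the same holds for them. Between 19921 and 24012 genes had a TPM above 0 in a liver, and the 10 most abundant genes took 23.8% to 32.9% of all TPM. The study gave the mean number of reads per fish, but TPM keep no counts, so the number of reads behind each gene's value is unknown. As a check of the tissue, 4 of 21 hepatocyte marker symbols were found (tf, fgb, fgg and rbp4), and their sum was between 21210 and 42750 TPM in every liver. The lowest sums were those of benthic fish 5 (21210 TPM), riverine fish 3 (24180 TPM) and littoral fish 1 (24610 TPM), and the next was 26560 TPM in benthic fish 4. Among markers of other cells, the sum of 10 leukocyte genes was 6.30 to 13.1 TPM in riverine, 7.64 to 55.3 TPM in littoral and 13.1 to 370 TPM in benthic livers, with the highest values in benthic fish 5 and littoral fish 2. Of these, lcp1 and cd79a rose in benthic relative to riverine fish (log2 fold changes 2.61 and 3.27, adjusted p = 0.0430 and 0.0424). The pair of exocrine pancreas markers found (cpb1 and pla2g1b, of 23 listed) summed to 2441 TPM in riverine fish 3 and 1964 TPM in littoral fish 2, and to between 144 and 945 TPM elsewhere. The 3 muscle markers found (of 17) summed to 40.9 to 120 TPM in riverine, 7.88 to 10.9 TPM in littoral and 14.3 to 63.5 TPM in benthic livers, most of it from mb, myoglobin, which fell in littoral relative to riverine fish (log2 fold change -2.87, adjusted p = 0.00824). The other muscle markers, myl1 and actn3, reached at most 2.05 and 1.07 TPM in any liver. Mean actn3 was lower in riverine (0.0867 TPM) than in littoral fish (0.406 TPM), so the sum mainly gives the level of mb. The 3 erythroid markers found (of 16) summed to 1.09 to 12.4 TPM in riverine, 0.168 to 2.66 TPM in littoral and 0.236 to 1.98 TPM in benthic livers, and gata1 fell in benthic relative to riverine fish (-3.41, adjusted p = 0.0200). Nfe2 went the other way (1.88, adjusted p = 0.0575), and epb41 was at most 0.324 TPM in any liver. In benthic relative to littoral fish gata1 was -1.13 (adjusted p = 0.615) and nfe2 1.93 (adjusted p = 0.206). For that comparison the study reported more expression of Eklf, EpoR and hemoglobin genes in benthic fish. Gata1 and nfe2 went different ways in both comparisons of benthic fish, so these markers do not give the share of erythroid cells. In homogenized tissue, fewer cells of a type and less RNA per cell cannot be told apart. Whether the calls of lcp1, cd79a, mb and gata1 hold under other scalings or without single fish was not examined.

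Fatty acid synthesis starts in the cytosol, where citrate exported from mitochondria is cleaved to acetyl-CoA. Acetyl-CoA is carboxylated to malonyl-CoA, and fatty acid synthase joins these units into palmitate with reducing power from NADPH. Elongases of the ELOVL family then add carbon units in the endoplasmic reticulum, both to newly made fatty acids and to those taken up with food. In vertebrate liver the synthesis genes are known to follow feeding and insulin, largely through the transcription factor SREBP-1, while sterol synthesis is driven mainly by SREBP-2.

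None of the 8 genes differed between populations at an adjusted p under 0.05. This was 0 of 8 between riverine and littoral fish, where 1.46% of the 21147 genes tested passed. It was 0 of 8 between riverine and benthic fish, where 11.2% passed, and 0 of 8 between littoral and benthic fish, where 0.359% passed. The tests were made with limma on log2(TPM + 0.1), and fold changes on this scale understate the change of low genes. At an unadjusted p under 0.05 the counts were 1, 1 and 0 of 8, against 18.9%, 32.8% and 10.9% of all genes. The gene that passed was fasn in both comparisons with riverine fish. The median log2 fold change of the 8 genes was 0.09 in littoral and -0.29 in benthic fish relative to riverine fish, where the medians of all genes were 0.40 and 0.62. Between littoral and benthic fish these medians were 0.13 and 0.20. The intervals of the single genes were wide, and a difference that missed the threshold is not shown to be absent.

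**Figure D1:**
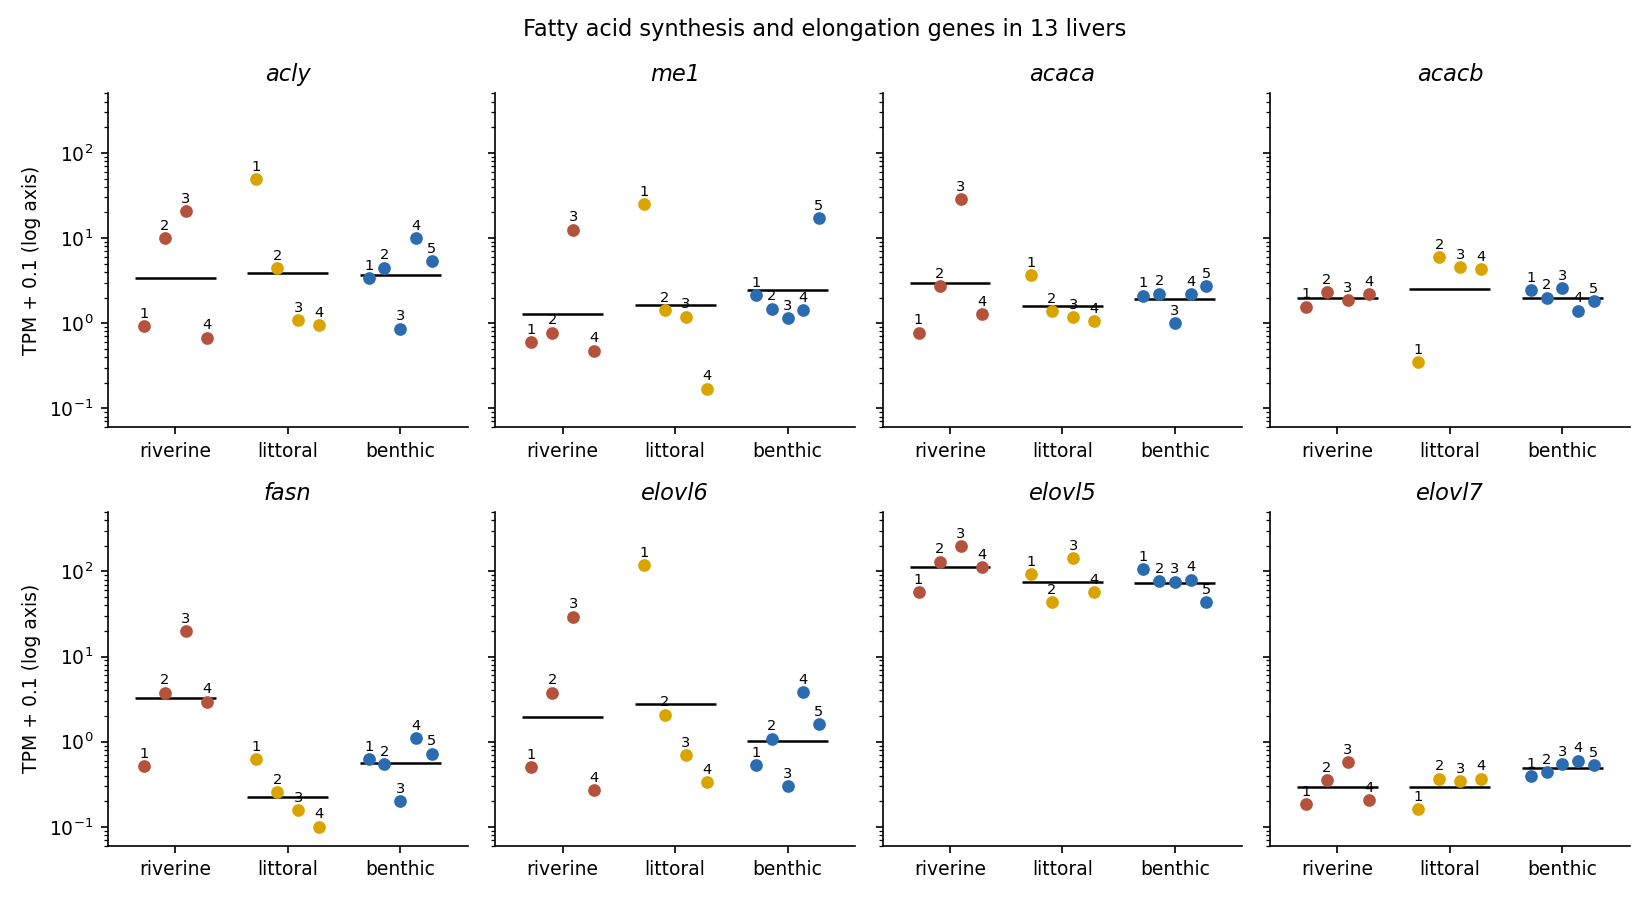
TPM + 0.1 of each gene (log axis) in riverine, littoral and benthic livers, 1 point per fish with its number, and the mean of the log values as a line. The highest elovl6 values are those of littoral fish 1 (117.7 TPM) and riverine fish 3 (29.4 TPM), while elovl5 stayed between 43.2 and 196.8 TPM in all 13 livers.

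The suppliers of carbon and NADPH varied more between fish of a population than between populations. ATP citrate lyase (acly), which cleaves citrate to acetyl-CoA, was at 0.821, 9.88, 20.7 and 0.577 TPM in riverine fish 1 to 4. It was at 49.1, 4.37, 0.980 and 0.840 TPM in littoral fish 1 to 4, and at 3.29, 4.39, 0.766, 9.79 and 5.27 TPM in benthic fish 1 to 5. Every population thus held livers under 1 TPM beside livers above 9 TPM, and all 3 ranges overlapped. The highest liver was 85.2-fold above the lowest. The mean was 8.01 ± 9.53 TPM (SD, n = 4) in riverine, 13.8 ± 23.6 TPM (SD, n = 4) in littoral and 4.70 ± 3.31 TPM (SD, n = 5) in benthic fish. The log2 fold changes were 0.20 (SE 1.30, adjusted p = 0.954) for littoral and 0.14 (SE 1.24, adjusted p = 0.952) for benthic relative to riverine fish.

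Cytosolic malic enzyme (me1), which makes NADPH from malate, was low in most livers and high in a single fish of each population. Riverine fish 1 to 4 had 0.501, 0.672, 12.5 and 0.374 TPM. Littoral fish 1 to 4 had 24.9, 1.33, 1.10 and 0.0694 TPM, and benthic fish 1 to 5 had 2.05, 1.38, 1.05, 1.33 and 17.1 TPM. Riverine fish 3, littoral fish 1 and benthic fish 5 stood apart, and the next fish of these populations had 0.672, 1.33 and 2.05 TPM. The benthic liver among them was also the one with the highest sum of leukocyte markers, and the riverine one had the highest sum of pancreas markers. Littoral fish 1, with the most me1, had the lowest littoral sums of leukocyte and pancreas markers (7.64 and 514 TPM). Littoral fish 2, with 55.3 and 1964 TPM of these markers, had 1.33 TPM of me1. Riverine fish 3, littoral fish 1 and benthic fish 5 had the lowest sums of hepatocyte markers of all livers (24180, 24610 and 21210 TPM). The part of the cell types in the me1 values was not tested. The log2 fold changes were 0.35 (SE 1.38, adjusted p = 0.912) in littoral and 0.93 (SE 1.31, adjusted p = 0.640) in benthic relative to riverine fish.

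The carboxylases make malonyl-CoA. In mammals ACACA supplies the malonyl-CoA used for synthesis in the cytosol, whereas ACACB works at the mitochondrial surface, where malonyl-CoA limits the entry of fatty acids for oxidation. Acetyl-CoA carboxylase alpha (acaca) was at 0.677, 2.62, 28.4 and 1.18 TPM in riverine, 3.55, 1.28, 1.08 and 0.963 TPM in littoral and 2.01, 2.11, 0.908, 2.08 and 2.63 TPM in benthic fish, in the order of their numbers. Riverine fish 3 alone was above 4 TPM, and the other 12 livers overlapped between populations. The log2 fold changes relative to riverine fish were -0.90 in littoral (SE 0.86, adjusted p = 0.585) and -0.60 in benthic fish (SE 0.82, adjusted p = 0.627). Without riverine fish 3 they were 0.19 and 0.49, so the direction of both rested on that liver.

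The second carboxylase, acacb, followed another pattern. It was at 1.46, 2.23, 1.75 and 2.09 TPM in riverine fish 1 to 4 and at 0.246, 5.86, 4.47 and 4.19 TPM in littoral fish 1 to 4. Benthic fish 1 to 5 had 2.36, 1.89, 2.49, 1.30 and 1.70 TPM. Littoral fish 2 to 4 were the 3 highest of all 13 livers, and littoral fish 1 was the lowest. Across the whole littoral group the log2 fold change relative to riverine fish was 0.37 (SE 0.70, adjusted p = 0.797). Without littoral fish 1 it was 1.32, with an adjusted p of 0.0529, and benthic relative to littoral fish was then -1.29, with an adjusted p of 0.0960. Riverine and the remaining littoral fish shared no run, so population and run cannot be told apart in the value of 1.32. The only setting that called acacb was the fit with the run as a covariate, which gave -2.50 in littoral (adjusted p = 0.0150) and -3.79 in benthic fish (adjusted p = 0.00494) relative to riverine fish. In that fit littoral fish 1 is the only liver that sets the difference between runs within a population. The ratio of acacb to acaca was 0.0694 in littoral fish 1 and 0.0618 in riverine fish 3, and between 0.627 and 4.56 in the other 11 livers.

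**Figure D2:**
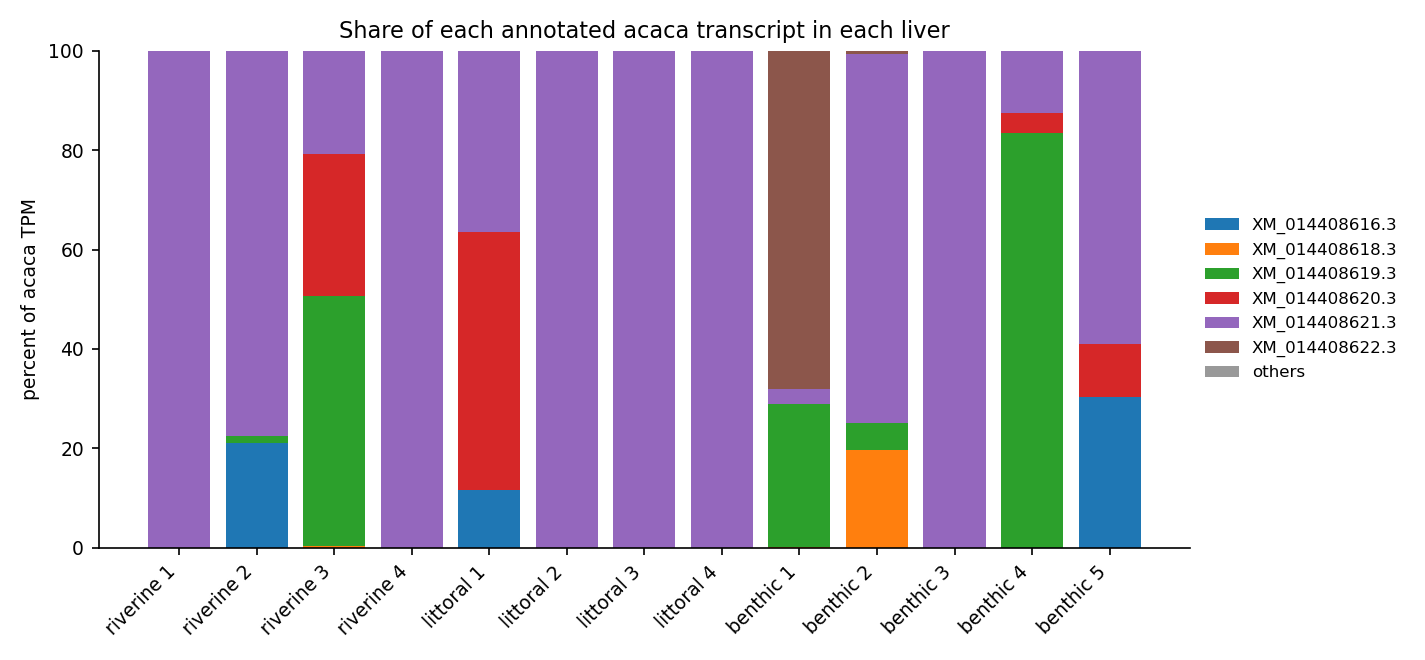
Percent of the acaca TPM assigned to each annotated transcript in each of the 13 livers. The transcript XM_014408621.3 took 37.9% of the mean acaca TPM, with shares between 3.0% and 100% in single livers.

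The acaca sum came from 10 annotated transcripts of 8795 to 9035 bases, which differ little in length. Of these, 4 led in at least 1 liver, and 6 reached 0.1 TPM in any liver. XM_014408621.3 was the only transcript with signal in livers such as littoral fish 2, at 1.28 TPM. In riverine fish 3, XM_014408619.3 led with 14.3 TPM, followed by XM_014408620.3 with 8.11 TPM and XM_014408621.3 with 5.91 TPM. XM_014408622.3 led in benthic fish 1, at 1.37 TPM. Reads of such similar models are divided by an estimate, and the split between them is less certain than the sum for the gene. The acacb sum came from 7 transcripts, of which XM_012917285.4 took 91.1% of the mean and led in every liver. Each of the other 6 genes had 1 transcript.

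Fatty acid synthase (fasn), which assembles palmitate, showed the largest difference of the set and was low in both lake ecomorphs. Riverine fish 1 to 4 had 0.414, 3.68, 19.6 and 2.84 TPM. Littoral fish 1 to 3 had 0.519, 0.156 and 0.0559 TPM, and littoral fish 4 was listed at 0. Benthic fish 1 to 5 had 0.525, 0.448, 0.101, 1.01 and 0.621 TPM. Riverine fish 2 to 4 were above all 9 lake livers, and riverine fish 1 lay within the lake range. The log2 fold change relative to riverine fish was -3.87 in littoral (SE 0.92, 95% interval -5.83 to -1.91, adjusted p = 0.0526) and -2.54 in benthic fish (SE 0.87, 95% interval -4.40 to -0.68, adjusted p = 0.0693). Relative to the median of all genes these were -4.27 and -3.16. Between littoral and benthic fish the log2 fold change was 1.33 (SE 0.87, adjusted p = 0.599).

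The fasn differences lay close to the threshold, on both sides of it under other settings. Riverine and littoral fish differed with an adjusted p of 0.0412 after median-of-ratios scaling, 0.0486 after quantile normalization and 0.0441 when genes under a mean of 1 TPM were left out. Leaving out riverine fish 1, littoral fish 1 or benthic fish 3 gave 0.0187, 0.0448 and 0.0470, and without littoral fish 1 these groups shared no run. Without riverine fish 3 the log2 fold change was -3.004 (adjusted p = 0.118) in littoral and -1.68 (adjusted p = 0.189) in benthic relative to riverine fish. The difference between riverine and benthic fish was called after median-of-ratios scaling (adjusted p = 0.0457), after quantile normalization (0.0457) and without riverine fish 1 (0.0350). Over all settings the adjusted p ranged from 0.0187 to 0.4597 for littoral and from 0.0350 to 0.910 for benthic fish. The highest values came with the run as a covariate, which moved the log2 fold changes to -2.40 and -0.58. Within the first run, littoral fish 1 at 0.519 TPM was above riverine fish 1 and below riverine fish 2 to 4. Riverine fish 3, with the most fasn, also had the most mb and the highest sum of pancreas markers. Littoral fish 2, with the next highest pancreas sum (1964 TPM), had 0.156 TPM of fasn. The hepatocyte sum was low in riverine fish 3 (24180 TPM), but also in littoral fish 1 (24610 TPM) and benthic fish 5 (21210 TPM), where fasn was at 0.519 and 0.621 TPM. The part of the cell types in the fasn values was not tested.

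**Figure D3:**
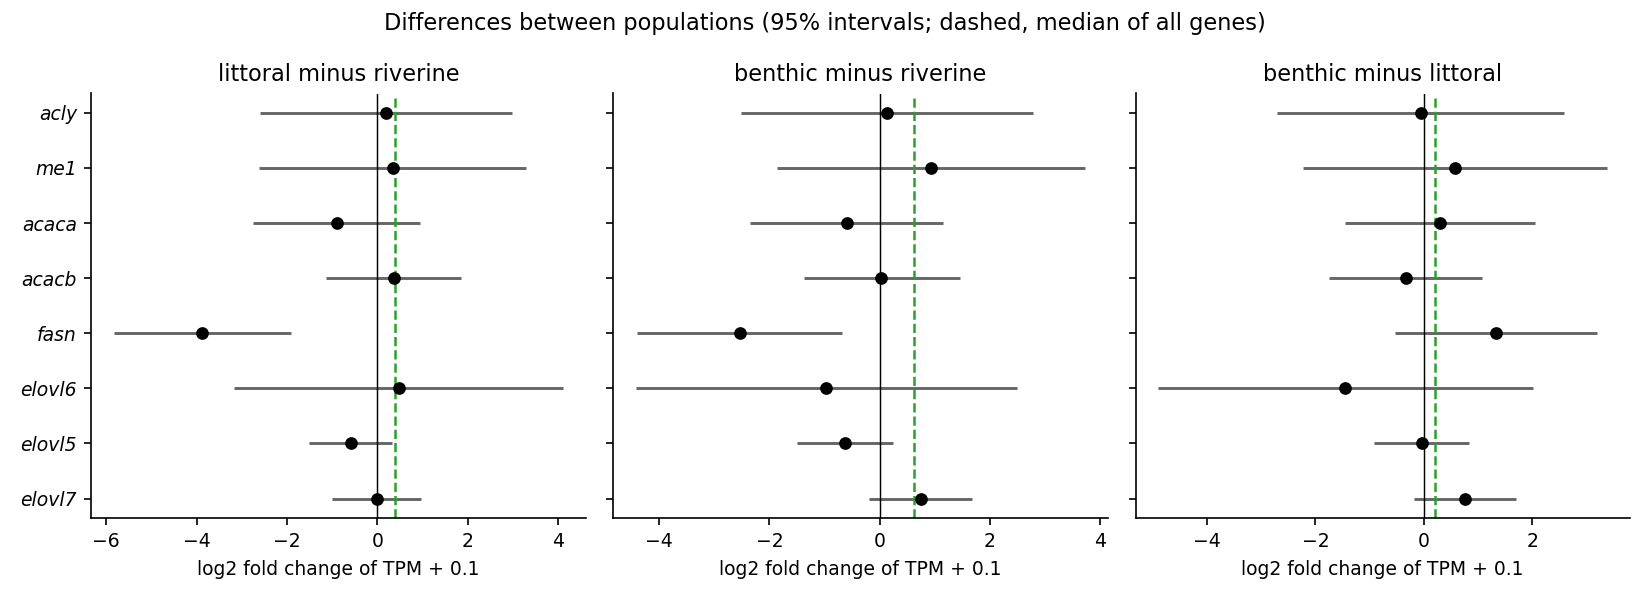
Log2 fold change of TPM + 0.1 for each gene in the 3 comparisons, with 95% intervals from limma and the median of all genes tested as a dashed line. For fasn the intervals lie below 0 in littoral (-5.83 to -1.91) and benthic (-4.40 to -0.68) relative to riverine fish, and the interval of every other gene in the 3 comparisons includes 0.

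The elongases separated into a steady and abundant one, a highly variable one and a scarce one. Elovl5, which in vertebrates lengthens polyunsaturated fatty acids, was the most abundant of the 8 genes in 12 of the 13 livers. It was at 57.3, 130.2, 196.8 and 112.6 TPM in riverine fish 1 to 4, at 92.8, 43.2, 143.2 and 57.4 TPM in littoral fish 1 to 4, and at 105.5, 77.0, 76.2, 79.9 and 43.8 TPM in benthic fish 1 to 5. The highest liver was only 4.56-fold above the lowest, and the populations overlapped. The mean was 124 ± 57.5 TPM (SD, n = 4) in riverine, 84.1 ± 44.6 TPM (SD, n = 4) in littoral and 76.5 ± 21.9 TPM (SD, n = 5) in benthic fish. The log2 fold changes relative to riverine fish were -0.58 (SE 0.43, adjusted p = 0.472) in littoral and -0.62 (SE 0.40, adjusted p = 0.294) in benthic fish. Elovl5 made up between 60.0% and 94.4% of the summed TPM of the 8 genes in 12 livers, and 32.1% in littoral fish 1.

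Elovl6, which lengthens palmitate and other saturated and monounsaturated fatty acids made in the cell, varied most of the set within populations (log2 scale). Riverine fish 1 to 4 had 0.402, 3.67, 29.4 and 0.172 TPM. Littoral fish 1 to 4 had 117.7, 1.99, 0.596 and 0.236 TPM, and benthic fish 1 to 5 had 0.431, 0.982, 0.200, 3.72 and 1.501 TPM. The highest liver was 686-fold above the lowest, and in littoral fish 1 elovl6 exceeded elovl5. The other 11 livers were all under 4 TPM and overlapped between populations. The log2 fold changes relative to riverine fish were 0.48 (SE 1.70, adjusted p = 0.899) in littoral and -0.97 (SE 1.61, adjusted p = 0.698) in benthic fish. Without riverine fish 3 and littoral fish 1 together they were -0.03 and 0.34.

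Elovl7, which in mammals lengthens long saturated fatty acids, was scarce, between 0.0608 and 0.501 TPM in all 13 livers. Its benthic values, 0.295 to 0.501 TPM, were all above the littoral ones, 0.0608 to 0.267 TPM. This was 1 of 8 genes without overlap between littoral and benthic fish, where 4.01% of all genes did not overlap. In the other comparisons 0 of 8 genes were free of overlap, against 9.63% and 16.7% of all genes. The log2 fold change of elovl7 in benthic relative to littoral fish was 0.75 (SE 0.44, adjusted p = 0.556).

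The spread between fish of a population was thus a feature of part of the set. The SD of elovl6 within populations was 2.81 on the log2 scale, and 99.1% of all genes tested had a smaller SD. The corresponding values were 2.27 and 97.6% for me1, 2.15 and 97.0% for acly, 1.45 and 89.0% for fasn, and 1.38 and 87.4% for acaca. Acacb had an SD of 1.09, above 75.7% of genes. Elovl5 with 0.65 and elovl7 with 0.55 had a smaller SD than most genes, at 39.6% and 25.8%. For elovl7 the added 0.1 TPM is large beside its values and narrows its SD on this scale. In TPM its highest liver was 8.24-fold above its lowest, against 4.56-fold for elovl5, so elovl7 is not shown to be less variable.

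Acly and elovl6 deviated together from fish to fish. Over 13 livers centred on their population means, their Pearson correlation on the log2 scale was 0.97, and it was 0.96 over the 11 livers without riverine fish 3 and littoral fish 1. The points share the library and its TPM scaling, and the correlations are given as a description. Acaca and fasn had a correlation of 0.91 (0.86 without both livers), acaca and acly 0.80 (0.85), and acly and fasn 0.83 (0.73). Relations with me1 rested more on the highest livers. The correlation of elovl6 and me1 was 0.83 over 13 livers and 0.42 over 11, and that of acacb and elovl6 was -0.72 and -0.21. Elovl5 had correlations with the other 7 genes between 0.51 with fasn and -0.12 with acacb.

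**Figure D4:**
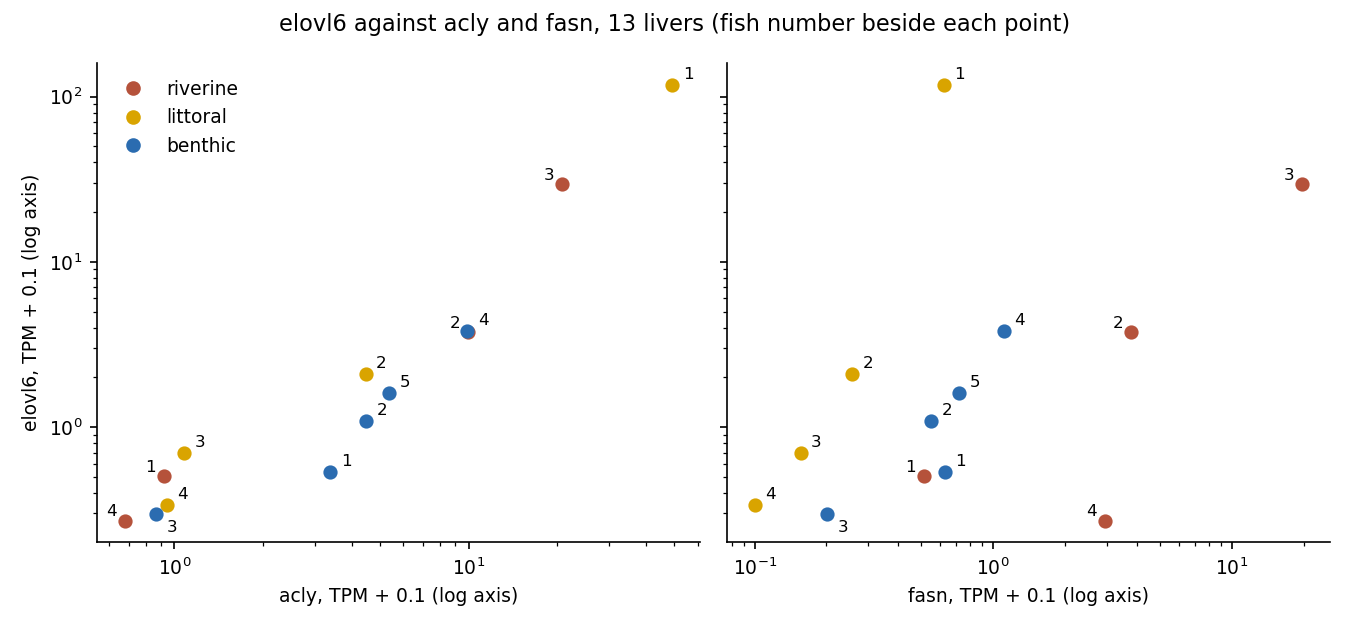
TPM + 0.1 of elovl6 against acly (left) and against fasn (right) in 13 livers, both axes on a log scale, with the number of each fish. Elovl6 and acly lie along a line in all 3 populations (correlation 0.97 after centring), while littoral fish 1 combines 117.7 TPM of elovl6 with 0.519 TPM of fasn.

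The livers rich in elovl6 and acly differed in fasn. In riverine fish 3, fasn was high as well, and the ratio of elovl6 to fasn in TPM was 1.495. In littoral fish 1 this ratio was 226.6, and the ratio of acly to fasn was 94.6. Littoral fish 2 and 3 had ratios of elovl6 to fasn of 12.7 and 10.7, and all riverine and benthic livers were between 0.0604 and 3.70. The ratio of acly to fasn was 0.203 to 2.69 in riverine, 17.5 to 94.6 in littoral fish 1 to 3 and 6.26 to 9.79 in benthic livers. This ratio was chosen after the values were seen, was not tested, and leaves out littoral fish 4, whose fasn was listed at 0. In littoral fish 2 and 3 it rests on fasn values of 0.156 and 0.0559 TPM, near the floor. How many other pairs of genes separate the populations in this way was not counted, and riverine and benthic livers shared no run. The ratio of elovl6 to acly was above 1 in riverine fish 3 (1.42) and littoral fish 1 (2.40) and between 0.131 and 0.608 in the other 11 livers.

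Genes that followed the set most closely were looked up among 6075 named genes of at least 1 TPM. As no gene of the set was called, elovl6, acly and fasn were taken for this after their values were seen. The genes most like elovl6 were acly (0.97), lacc1 (0.93) and psmd8, a proteasome subunit (0.92), as centred correlations over 13 livers. Those most like acly were elovl6 (0.97), lacc1 (0.95) and rdh12, a retinol dehydrogenase (0.95). Those most like fasn were ass1, the argininosuccinate synthase of the urea cycle (0.92), aldh5a1 (0.91) and mfhas1 (0.91). Ass1 was at 28.3 TPM in riverine fish 3 and between 0.0660 and 3.48 TPM in the other livers.

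Few genes of neighbouring steps were called, and each count is to be read against the share of all genes called. Of all genes, 0.998% rose and 0.459% fell in littoral relative to riverine fish, 9.66% rose and 1.49% fell in benthic relative to riverine fish, and 0.312% rose and 0.0473% fell in benthic relative to littoral fish. Of 10 other genes listed around the supply of carbon and NADPH, 1 rose and 0 fell in benthic relative to riverine fish, and none was called in the other comparisons. This gene, me2, encodes the mitochondrial malic enzyme, so its call does not show a change in NADPH supply in the cytosol. Me2 was at 0.573 ± 0.168 TPM (SD, n = 4) in riverine and 3.74 ± 2.81 TPM (SD, n = 5) in benthic fish (log2 fold change 2.21, SE 0.58, adjusted p = 0.0300). All benthic values, 1.31 to 7.51 TPM, were above all riverine values. The livers with the most me2, benthic fish 5 and 2 (7.51 and 5.93 TPM), had leukocyte sums of 370 and 41.0 TPM, and littoral fish 2, highest of the littoral livers with 2.11 TPM, had 55.3 TPM. At a leukocyte sum of 13.1 TPM each, benthic fish 4 had 1.31 TPM of me2 and riverine fish 2 had 0.798 TPM. The part of leukocytes in the me2 values was not tested. The log2 fold change of me2 was 1.89 without benthic fish 5 (adjusted p = 0.0696), and also 1.89 without littoral fish 2 and benthic fish 5 together (adjusted p = 0.0427). None of 3 genes of the other steps of the elongation cycle (hsd17b12, hacd2 and tecr) and none of 3 desaturase genes (fads6, degs1 and degs2) was called in any comparison. Degs1 and degs2 encode desaturases of sphingolipids, which leaves only fads6, at most 2.30 TPM in any liver, for fatty acid desaturation. Fads2, slc25a1, mlxipl and thrsp had no entry under their symbols and were not analysed here. For fads2 the study reported weaker expression in both lake ecomorphs than in riverine fish.

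Among 10 genes listed around the activation and binding of acyl-CoA, which included the thioesterase genes olah and acot7, 2 rose in benthic relative to riverine fish. These were the acyl-CoA binding domain genes acbd3 (log2 fold change 1.18, SE 0.35, adjusted p = 0.0458) and acbd6 (1.36, SE 0.41, adjusted p = 0.0472). Both calls were lost after scaling, with log2 fold changes of 0.59 and 0.71 for acbd3 (adjusted p = 0.265 and 0.213) and 0.81 and 0.56 for acbd6 (0.146 and 0.340) under median-of-ratios scaling and quantile normalization. None of this list was called in the other comparisons. Mitochondria hold a separate pathway of fatty acid synthesis, which supplies among others the precursor of lipoic acid. Of 11 genes tested that were listed with it or with lipoic acid, 2 rose in littoral and 1 rose in benthic relative to riverine fish, and none fell. Among them olah was also counted in the 10 genes above and was not called. Acsf3, which makes malonyl-CoA in mitochondria, was at 0.386 to 0.754 TPM in riverine and 1.93 to 2.97 TPM in littoral livers (log2 fold change 1.94, SE 0.37, adjusted p = 0.0248). It was at 0.836 to 2.39 TPM in benthic livers (1.16, SE 0.35, adjusted p = 0.0495). In the same order of scalings, acsf3 was 0.63 and 0.29 in benthic (adjusted p = 0.271 and 0.718) and 1.62 and 1.36 in littoral relative to riverine fish (0.0503 and 0.147), so that no call held. Mcat, which passes malonyl groups to the acyl carrier protein, was at 1.05 to 1.65 TPM in riverine and 3.29 to 5.40 TPM in littoral livers (1.57, SE 0.33, adjusted p = 0.0358), and it was called with median-of-ratios scaling (0.0461) but not with quantile normalization (0.0661). Littoral fish 1, sequenced in the run of the riverine fish, had 2.89 TPM of acsf3 and 4.28 TPM of mcat, above all riverine livers of that run. This is 1 liver, and the part of the run in these differences was not tested.

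Of 14 regulators of lipid synthesis, 1 fell in benthic relative to riverine fish and 1 rose in benthic relative to littoral fish. Pparg, a nuclear receptor known for fat storage, had 11.7, 11.7, 14.7 and 25.5 TPM in riverine fish and 8.60, 3.60, 5.55, 3.72 and 4.15 TPM in benthic fish (log2 fold change -1.61, SE 0.41, adjusted p = 0.0291). The groups did not overlap, and littoral fish lay between 3.49 and 14.2 TPM. Srebf2, which encodes SREBP-2, had 2.20, 3.72, 3.05 and 1.36 TPM in littoral and 33.0, 17.5, 17.1, 12.8 and 18.6 TPM in benthic fish (log2 fold change 2.91, SE 0.55, adjusted p = 0.0432). Riverine fish 1 to 4 had 3.44, 28.1, 6.45 and 3.52 TPM of srebf2, which overlapped with the benthic values. The log2 fold change in benthic relative to riverine fish was 1.44 (SE 0.55, adjusted p = 0.0907). Srebf1, which encodes SREBP-1, was at 3.98, 6.01, 13.4 and 9.23 TPM in riverine, 3.36 to 4.36 TPM in littoral and 3.90 to 10.4 TPM in benthic fish. Its log2 fold changes were -0.94 in littoral (adjusted p = 0.215) and -0.40 in benthic fish (adjusted p = 0.473) relative to riverine fish. With the run as a covariate the adjusted p of me2, acbd3, acbd6, acsf3 and mcat was between 0.0692 and 0.653, that of srebf2 was 0.0818 and that of pparg was 0.0221. Pparg and srebf2 were called with both scalings, and me2 with median-of-ratios scaling (0.0334) but not with quantile normalization (0.0536). Leaving out 1 fish at a time, pparg was called in 7 of 13 fits, srebf2 in 3, me2 in 8, mcat in 4, acbd3 and acbd6 in 3 each, and acsf3 in 8 for littoral and 4 for benthic fish.

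Sterol synthesis uses the same acetyl-CoA and was compared as a second lipid pathway. The median log2 fold change of its 17 genes was -1.20 in littoral and 1.97 in benthic fish relative to riverine fish, and of 3.36 in benthic relative to littoral fish. The 8 fatty acid genes had medians of 0.09, -0.29 and 0.13 in the same order. A single sterol gene was called, fdft1, the squalene synthase, in benthic relative to riverine fish (3.44, SE 1.04, adjusted p = 0.0487), and it lost the call in 11 of 13 fits that left out 1 fish, with both scalings (0.0960 and 0.0995) and with the run as a covariate (0.244). The summed sterol genes were at 226, 3670, 1215 and 145 TPM in riverine fish 1 to 4, at 717, 150, 174 and 96.5 TPM in littoral fish 1 to 4, and at 3191, 2447, 857, 3405 and 1536 TPM in benthic fish 1 to 5. All benthic livers were thus above all littoral livers, and the riverine livers, 145 to 3670 TPM, overlapped with both. The 8 fatty acid genes summed to 61.7 to 310 TPM in riverine, 58.4 to 289 TPM in littoral and 73.0 to 117 TPM in benthic livers.

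Within populations, acly followed the sterol genes. Its centred correlation with the mean of the 17 genes was 0.83 over 13 livers and 0.85 without riverine fish 3 and littoral fish 1. For elovl6 it was 0.74 and 0.78, for fasn 0.59 and 0.57, and for acaca 0.53 and 0.77. It was 0.46 and 0.18 for me1, and 0.43 and 0.38 for elovl5. For acacb it was -0.43 and 0.12, and for elovl7 0.09 and 0.63. Riverine fish 2, with the highest sterol sum, had only 3.67 TPM of elovl6, and littoral fish 1 with 117.7 TPM of elovl6 had a sterol sum of 717 TPM.

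**Figure D5:**
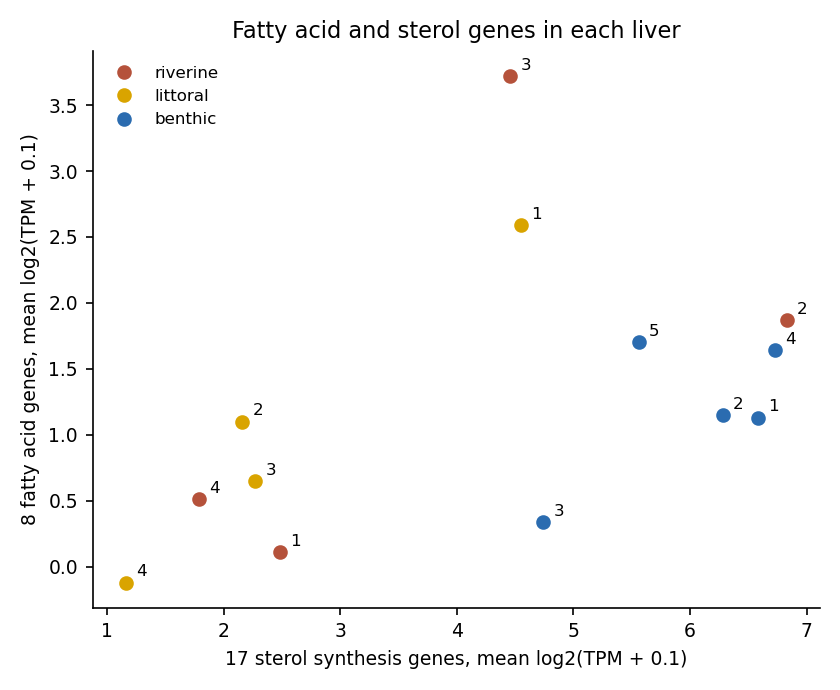
Mean log2(TPM + 0.1) of the 8 fatty acid genes against that of 17 sterol synthesis genes in each of the 13 livers, with the number of each fish. Riverine fish 3 has the highest fatty acid mean (3.72) at a sterol mean of 4.46, and the benthic livers lie at sterol means of 4.74 to 6.73 with fatty acid means of 0.34 to 1.70.

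In the opposite pathway, mitochondrial fatty acid oxidation, 1 of 14 genes rose in littoral and 1 rose in benthic relative to riverine fish, and none fell. Cpt2, which releases acyl-CoA inside mitochondria, was at 1.43 to 4.90 TPM in riverine and 8.69 to 12.9 TPM in littoral livers (log2 fold change 1.71, SE 0.40, adjusted p = 0.0496). Acaa2, the thiolase that splits off acetyl-CoA, was at 7.36 to 146 TPM in riverine and 99.4 to 347 TPM in benthic livers (3.00, SE 0.81, adjusted p = 0.0339). Leaving out 1 fish at a time, cpt2 was called in 2 and acaa2 in 6 of 13 fits. With the run as a covariate cpt2 was 1.52 (adjusted p = 0.243) and acaa2 0.81 (0.848). Cpt2 was not called with either scaling (0.118 and 0.145), and acaa2 was called with quantile normalization (0.0477) but not with median-of-ratios scaling (0.0771). For fat cells, which also make fatty acids, 3 of 12 listed symbols were found (lipe, cidec and cebpa). Their sum was 91.0 to 146 TPM in riverine, 73.9 to 128 TPM in littoral and 76.0 to 161 TPM in benthic livers, and it was 84.1 TPM in littoral fish 1. Most of it was cidec, at 62.2 to 151 TPM. Lipe was highest in riverine fish 3 (4.29 TPM) and lowest in littoral fish 1 (0.348 TPM). In homogenized liver the expression of these genes by fat cells and by hepatocytes cannot be told apart, so the sum does not measure fat cells.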

How the data were processed

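Liver RNA of 13 wild males (4 riverine, 4 littoral and 5 benthic) was analysed. The authors trimmed reads (Trim Galore), shortened those of the second sequencing run to 100 bp and estimated transcript abundance with kallisto, using the annotation of *Maylandia zebra*. They deposited TPM per transcript and fish. The TPM of 51012 transcripts were summed by symbol to 29676 genes, and 0 columns were left unused. The 21147 genes averaging 0.1 TPM or more over the livers were analysed as log2(TPM + 0.1) with limma 3.58.1 in R 4.3.3 (trend, the 3 populations in a single fit), with Benjamini–Hochberg adjustment over all of them within each comparison. TPM do not allow the sleuth model of the study. Populations follow the labels, and fish are numbered in the order of the sample list. The fit was also run on simulated data with independent normal noise for each gene. These held no run effect and no livers that stood apart, so they do not show how the fit handles either. Sums and summaries were made with pandas 2.3.3.

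The set, the gene lists (general knowledge, found by symbol) and the tests were chosen with earlier results of these data known. All genes of the set are named. Of the lists, genes called in any comparison are named, with srebf1, mlxipl, thrsp, slc25a1 and fads2 where present. Marker lists are given by sums, with the called genes. Alternatives were other pseudocounts and filters, median-of-ratios scaling, quantile normalization, the run as a covariate or the second run alone, pairs of populations alone, single transcripts and leaving out each fish. Leaving out riverine fish 3 with littoral fish 1, and littoral fish 2 with benthic fish 5, was chosen after seeing the data. RRBS, WGBS and tank-reared fish were not analysed here, RRBS because no annotation of its genome build was used.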

Additional observations from a re-analysis of the deposited data

Results flagged for a closer look

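In 10 of 24 groups (8 genes in 3 populations) a single liver stood apart from the others of its population, with a gap to the nearest fish above Dixon's 95% limit. Chance flags about 1 in 20 groups of normally distributed values. This rate need not hold for TPM, which are skewed, and genes that deviate together are not independent. Riverine fish 3 was high in acaca (28.4 TPM), elovl6 (29.4 TPM), fasn (19.6 TPM) and me1 (12.5 TPM). The next riverine values were 2.62, 3.67, 3.68 and 0.672 TPM. Littoral fish 1 was high in acly (49.1 TPM), elovl6 (117.7 TPM), me1 (24.9 TPM) and acaca (3.55 TPM), where the next littoral values were 4.37, 1.99, 1.33 and 1.28 TPM. It was low in elovl7 (0.0608 TPM, next 0.244 TPM). Benthic fish 5 was high in me1 (17.1 TPM, next 2.05 TPM). On the log2 scale 5 groups had such a liver: me1 in riverine fish 3 and benthic fish 5, elovl7 and acacb in littoral fish 1 (low) and acaca in benthic fish 3 (low). Riverine fish 3, littoral fish 1 and benthic fish 5 also had the lowest sums of hepatocyte markers (24180, 24610 and 21210 TPM). Whether their flagged values are related to these sums was not tested.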

How the results depend on the processing

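The count of called genes was 0 of 8 in each comparison. It was 1 between riverine and littoral fish under a filter of 1 TPM on the mean, after median-of-ratios scaling, after quantile normalization (fasn) and with the run as a covariate (acacb), and 1 between riverine and benthic fish with both scalings (fasn) and with the run as a covariate (acacb). Testing each transcript on its own left the count at 0 in each comparison. Leaving out 1 fish gave counts of 0 to 1, 0 to 1 and 0 to 0. Of 269 single values of the set under other settings, 229 kept direction and side of the threshold, 35 turned in sign, none of them called at 0.05 without the run term, and 5 became called. The cause of these changes was not tested. In littoral relative to riverine fish the turned values were 0.005 for elovl7 with a pseudocount of 0.01, -0.033 (acacb) and -0.15 (acly) with median-of-ratios scaling, -0.28 (acly), -0.084 (elovl6) and -0.21 (me1) with quantile normalization, 0.30 (acaca) and -2.50 (acacb) with the run as a covariate. In benthic relative to riverine fish they were -0.066 for acly with a pseudocount of 1, -0.54 (acacb) and -0.44 (acly) with median-of-ratios scaling, -0.67 (acacb), -0.50 (acly) and -0.20 (elovl7) with quantile normalization, and 0.997 (acaca), -3.79 (acacb), 6.26 (elovl6) and -0.41 (elovl7) with the run as a covariate. In benthic relative to littoral fish acly was 1.16, elovl5 0.057 and elovl6 0.36 with the run as a covariate, in the second run alone and without riverine fish 3 and littoral fish 1.

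Without riverine fish 3 and littoral fish 1, acly was -0.15, elovl6 -0.025 and elovl7 0.60 in littoral, and acaca 0.49 and elovl6 0.34 in benthic relative to riverine fish. Without littoral fish 2 and benthic fish 5, acacb was -0.047 in littoral relative to riverine fish, and acacb was 0.12 and me1 -0.18 in benthic relative to littoral fish. Leaving out 1 fish, littoral relative to riverine values ranged from -1.54 to 0.19 for acaca, -0.047 to 1.32 for acacb, -1.03 to 1.07 for acly, -1.33 to 1.78 for elovl6, -0.24 to 0.31 for elovl7 and -0.96 to 1.44 for me1. Benthic relative to riverine values ranged from -1.25 to 0.49 for acaca, -0.078 to 0.16 for acacb, -0.64 to 1.01 for acly and -1.92 to 0.34 for elovl6. Benthic relative to littoral values ranged from -1.29 to 0.079 for acacb, -0.74 to 1.16 for acly, -0.31 to 0.27 for elovl5, -2.46 to 0.36 for elovl6 and -0.51 to 1.89 for me1.

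The median of all genes moved from 0.40 to 0.09 in littoral and from 0.62 to 0.13 in benthic relative to riverine fish under median-of-ratios scaling. No paired analysis was possible because the fish of each population are different animals and their numbers only name them. The planned counts of CG sites at these genes were not run, since no annotation on the build of the methylation data was used.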
